A study of Mus musculus with 16 samples.

Results

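Fosl2, Nr4a1 and Gadd45g, 3 genes known to be switched on when T cells are activated, were followed through 16 RNA libraries of mouse CD4 T cells with and without the corepressor scaffold Sin3A. The 3 genes are 3 of the 8552 that carry a name in the authors' deposited table, which holds 17850 rows of values. They were picked with earlier results of these data known and selected on the authors' comparison of Th17 cells, since the table names only genes that the authors list as lower in Sin3A deficient than in Sin3A sufficient Th17 cells. That fall therefore decided which genes could be chosen, and it is given here as a description without a test.

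Th17 deficient libraries (D3TAM955, D3TAM957, D3TAM959 and D3TAM960) came from cells held in IL-7, a cytokine that keeps T cells alive, for 6 days and then moved to Th17 polarization for 3 days, with tamoxifen. Th17 sufficient libraries (D3955, D3957, D3959 and D3960) had the same 6 and 3 days without tamoxifen. IL-7 deficient libraries (BASALTAM955, BASALTAM957, BASALTAM959 and BASALTAM960) and IL-7 sufficient libraries (BASAL955, BASAL957, BASAL959 and BASAL960) stopped after the 6 days of IL-7, with and without tamoxifen. Every mouse was C57BL/6 J, 2 months old, and carried Rosa26-CreERT2 +/-, a tamoxifen-activated Cre recombinase expressed in all cells, and the floxed alleles Sin3AF/F. The same 4 numbers recur in the names of every group, and the labels give the number of BASAL959 as female and the other 3 as male. Tamoxifen and deletion cannot be told apart, since 0 libraries treated with tamoxifen and lacking the floxed alleles were analysed here. The labels name neither the stimulus nor the cytokines of the Th17 conditions, and the Th17 cells were also 3 days older in culture. Whether each library is a mouse of its own is not stated, so a p-value reflects only the spread between libraries, part of which may be technical.

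Signals from the T cell receptor reach the nucleus within minutes and induce a first wave of genes whose products are themselves regulators. Fosl2 encodes Fra-2, a Fos family subunit of the AP-1 transcription factor, which binds DNA as a dimer with a Jun protein and is known to take part in Th17 differentiation. Nr4a1 encodes Nur77, an orphan nuclear receptor whose expression follows the strength of T cell receptor signalling and which restrains T cell responses. Gadd45g encodes a small stress- and cytokine-induced protein that binds the kinase MEKK4 and feeds into p38 and JNK signalling, a route known from the production of interferon-gamma. Sin3A itself holds histone deacetylases to the transcription factors that recruit them.

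The promoters of the 3 genes are shown because their transcript levels are compared throughout and because activation-induced factors act at such sequences. All 3 matched by symbol in the RefSeq table (build GRCm38.p6), which gives 250 bases before and 50 after the start site. Capitals mark matches to any of 9 motifs, searched on both strands. Fosl2 lies at chr5:32136222-32136521, Nr4a1 at chr15:101266596-101266895 and Gadd45g at chr13:51846425-51846724, all on the + strand.
Fosl2 promoter: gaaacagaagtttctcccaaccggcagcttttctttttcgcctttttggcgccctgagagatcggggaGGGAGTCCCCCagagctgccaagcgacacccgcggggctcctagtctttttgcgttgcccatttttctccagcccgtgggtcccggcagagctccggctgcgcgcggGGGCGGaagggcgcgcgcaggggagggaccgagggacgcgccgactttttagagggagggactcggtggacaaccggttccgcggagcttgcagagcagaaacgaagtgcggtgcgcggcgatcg
Nr4a1 promoter: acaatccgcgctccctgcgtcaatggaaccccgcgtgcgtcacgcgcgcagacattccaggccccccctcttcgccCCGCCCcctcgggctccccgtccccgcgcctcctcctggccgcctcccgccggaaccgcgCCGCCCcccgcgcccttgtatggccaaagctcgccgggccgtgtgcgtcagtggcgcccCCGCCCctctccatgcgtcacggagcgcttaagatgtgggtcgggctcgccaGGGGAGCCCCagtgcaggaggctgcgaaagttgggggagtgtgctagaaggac
Gadd45g promoter: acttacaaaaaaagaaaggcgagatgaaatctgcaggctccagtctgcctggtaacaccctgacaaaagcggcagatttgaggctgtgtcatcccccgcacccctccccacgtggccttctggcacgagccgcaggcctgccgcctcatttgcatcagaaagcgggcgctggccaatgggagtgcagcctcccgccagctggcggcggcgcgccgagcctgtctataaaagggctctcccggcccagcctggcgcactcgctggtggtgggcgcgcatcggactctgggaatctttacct
The Fosl2 window held an NF-kappaB site in 2 overlapping placements starting 182 and 181 bases before the start site, and a GC box 75 bases before it. The Nr4a1 window held 3 GC boxes, at 174, 114 and 55 bases before the start site, and an NF-kappaB site that began 3 bases before it. The Gadd45g window held none of the 9 motifs. Of all 32851 promoters in the table, 8.46% held the NF-kappaB site and 35.7% the GC box (GGGCGG). No window held the AP-1 site TGACTCA (5.20% of promoters), the cAMP response element TGACGTCA (1.79%), the NR4A site AAAGGTCA (1.51%), the NFAT core TGGAAA (21.4%), the STAT site TTCNNNGAA (8.30%), the CArG box (1.63%) or the MEF2 site (3.19%). The GC content of the windows was 64.7% in Fosl2, 72.3% in Nr4a1 and 62.3% in Gadd45g, against a median of 52.7% over all promoters. A match is a string of letters and not evidence that a factor binds there.

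Values are normalized counts, the authors' reads divided by a size factor for each library, restored here because the deposited numbers had lost their decimal points. The restored totals were 19736814 to 28601784 reads per library. Sin3a averaged 1774 ± 49.8 normalized counts in Th17 deficient and 2106 ± 181 in Th17 sufficient cells, and 2211 ± 98.2 in IL-7 deficient and 2524 ± 249 in IL-7 sufficient cells (SD, n = 4 each). The IL-7 difference of -0.19 on the log2 scale did not pass (SE 0.08, limma adjusted p = 0.189), and which exons are floxed is not stated, so a total over the gene need not follow the deletion. Of 11 T cell identity genes, 8 could be measured, and they summed to 41897 to 45417 normalized counts in Th17 deficient, 66196 to 70574 in Th17 sufficient, 82816 to 88376 in IL-7 deficient and 86400 to 98324 in IL-7 sufficient libraries. The Th17 cytokine gene Il17f averaged 7910.2 normalized counts in Th17 deficient and 28001 in Th17 sufficient cells, against 21.1 in IL-7 deficient and 24.3 in IL-7 sufficient cells. Of the markers of other cells, 2 of 6 for B cells, 1 of 2 for CD8 T cells, 1 of 6 for NK cells, 1 of 5 for erythroid cells, 0 of 6 for myeloid cells and 0 of 5 for dendritic cells had a name and settled values. The library BASAL960 lay farthest from its group over all rows, with a mean absolute log2 deviation of 0.29, and D3955 came next with 0.25, so results that rest on them are given with and without them.

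All 3 genes had the same order of levels. Their mean was highest in Th17 sufficient cells, then came Th17 deficient, IL-7 sufficient and IL-7 deficient cells. The place of Th17 sufficient above Th17 deficient cells was fixed in advance, since only genes listed as lower in deficient Th17 cells carry names. How many of all rows have this order was not counted. Every Th17 library was above every IL-7 library for each gene, while neighbouring groups within a stage overlapped in 4 of 6 cases. The nearest Th17 and IL-7 values were 2271 (D3TAM955) and 283 (BASAL960) for Fosl2, 919 (D3955) and 193 (BASAL960) for Nr4a1, and 1144 (D3TAM955) and 904 (BASAL960) for Gadd45g. Of all rows tested, 36.0% had all 4 Th17 above all 4 IL-7 libraries in deficient cells and 31.9% in sufficient cells. The share of rows with every Th17 library above every IL-7 library was not counted.

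Fosl2, the AP-1 subunit, had 2271, 3493, 2925 and 2431 normalized counts in D3TAM955, D3TAM957, D3TAM959 and D3TAM960, the Th17 deficient libraries. In the Th17 sufficient libraries, in the same order of numbers, it had 7999.9, 10237, 10282 and 12069.5. Every sufficient Th17 library was above every deficient one. In IL-7 cells Fosl2 had 193, 188, 182 and 236 normalized counts in the deficient libraries and 232, 216, 225 and 283 in the sufficient ones. These ranges overlapped, since the deficient library BASALTAM960 was above 3 of the 4 sufficient libraries. The group means were 2779.8 ± 551 in Th17 deficient, 10147 ± 1667 in Th17 sufficient, 199.8 ± 24.7 in IL-7 deficient and 239 ± 30.2 in IL-7 sufficient cells (SD, n = 4 each).

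Nr4a1, the orphan nuclear receptor gene, had 1762, 1598, 1028 and 1143 normalized counts in the Th17 deficient libraries, in the same order. The Th17 sufficient libraries had 919, 5051, 8675 and 4976. Here 3 sufficient libraries were above all deficient ones, and D3955 was below all 4 of them. The D3955 value rests on the join to the authors' comparison. From the spread of the group alone a value 10 times higher was more probable (posterior 0.611). The join searched rows and powers of 10 for the authors' log2 fold change and kept 919, to within 2.22e-07. That agreement is what the search sought, so it does not check the row or the value. The authors' mean for Nr4a1 was 5.24 times the mean of the 16 libraries, and its bearing on the join was not tested. In IL-7 cells Nr4a1 was low, with 31.4, 20.2, 25.7 and 53.4 normalized counts in the deficient and 56.0, 48.3, 54.8 and 193 in the sufficient libraries. The sufficient library BASAL960 was 3.64 times the mean of the other 3, which lay at 53.0 ± 4.13 (SD, n = 3). The group means were 1383 ± 353 in Th17 deficient, 4906 ± 3169 in Th17 sufficient, 32.7 ± 14.5 in IL-7 deficient and 87.9 ± 69.9 in IL-7 sufficient cells (SD, n = 4 each).

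Gadd45g, the stress-induced partner of MEKK4, had 1144, 1879, 1279 and 1693 normalized counts in the Th17 deficient libraries, again from D3TAM955 to D3TAM960. The Th17 sufficient libraries had 1306, 2708, 2809 and 4661. D3955 was again the lowest sufficient library and lay within the deficient range, below 2 of the 4 deficient libraries. In IL-7 cells the deficient libraries had 125, 131, 146 and 166 and the sufficient ones 278, 433, 415 and 904. Here the groups did not overlap. The group means were 1499 ± 345 in Th17 deficient, 2871 ± 1377 in Th17 sufficient, 142 ± 18.1 in IL-7 deficient and 507 ± 273 in IL-7 sufficient cells (SD, n = 4 each).

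**Figure D1:**
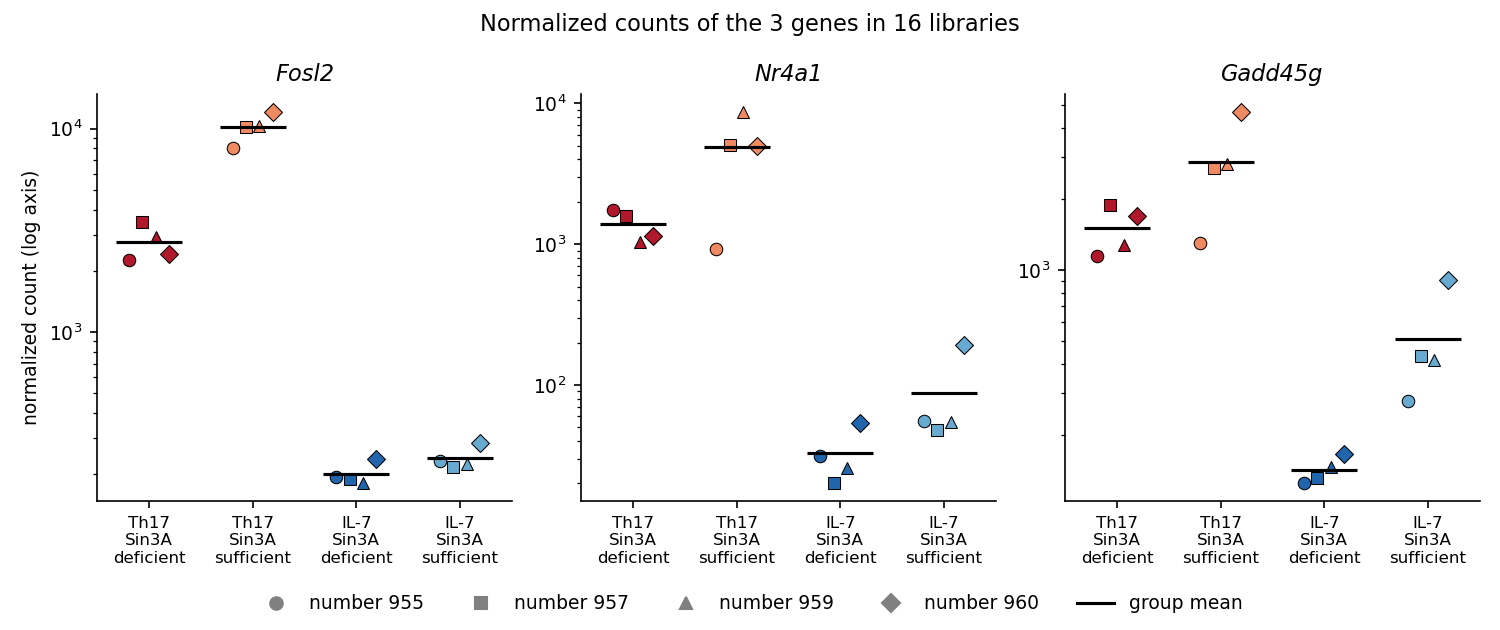
Normalized counts of Fosl2, Nr4a1 and Gadd45g (vertical, log axis) in the 4 libraries of each group (horizontal), with 1 symbol per library number and a bar at the group mean. All Th17 libraries lie above all IL-7 libraries for each gene, D3955 (circle) is the lowest Th17 sufficient library in each panel, and BASAL960 (diamond) is the highest IL-7 sufficient one.

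Th17 polarization raised all 3 genes in Sin3A deficient and in Sin3A sufficient cells, where 37.8% and 36.4% of the 14321 rows tested were called higher (limma adjusted p under 0.05). Fosl2 was 13.7-fold higher in deficient Th17 than in deficient IL-7 cells (log2 3.78, SE 0.14, limma adjusted p = 1.45e-13), and 42.1-fold higher in the sufficient pair (log2 5.39, SE 0.14, limma adjusted p = 2.68e-15). Nr4a1 was 42.7-fold higher in the deficient pair (log2 5.42, SE 0.53, limma adjusted p = 3.61e-08) and 50.7-fold higher in the sufficient pair (log2 5.66, SE 0.53, limma adjusted p = 2.42e-08). Without D3955 the sufficient fold of Nr4a1 was 81.1. Gadd45g had the smallest folds of the 3, 10.3 in the deficient pair (log2 3.37, SE 0.33, limma adjusted p = 2.80e-08) and 5.65 in the sufficient pair (log2 2.50, SE 0.33, limma adjusted p = 1.57e-06). All 4 Th17 libraries lay above all 4 IL-7 libraries in each of these 6 comparisons. Markers of other cells moved in the same comparisons. Cd8b1, the CD8 T cell marker measured, had 73.3 to 116 normalized counts in Th17 deficient against 323 to 430 in IL-7 deficient libraries, and 150 to 175 in Th17 sufficient against 331 to 534 in IL-7 sufficient libraries. Nkg7, the NK cell marker measured, had 32.6 to 104 in Th17 deficient against 148 to 428 in IL-7 deficient libraries, and overlapped in sufficient cells (42.5 to 484 against 200 to 608). The B cell marker Cd79a was lower in Th17 libraries in both. It had 18.1 to 27.8 against 56.3 to 80.0 in deficient and 25.6 to 47.4 against 80.2 to 145 in sufficient libraries. Blk, the other B cell marker measured, overlapped in both. It had 28.3 to 162 against 35.6 to 106 in deficient and 100 to 272 against 202 to 746 in sufficient libraries. The part of these cells in the rise of the 3 genes was not tested.

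Against the whole table the sizes stand out more than the calls. Rows whose Th17 libraries all lay above the IL-7 ones made up 36.0% of those tested in deficient and 31.9% in sufficient cells. In deficient cells 98.1% of rows had a change no larger than that of Fosl2, 99.6% no larger than that of Nr4a1 and 97.3% no larger than that of Gadd45g. In sufficient cells the shares were 99.5%, 99.6% and 94.1%. These comparisons share their Th17 libraries with the one that decided which genes have names. Among the 6763 named rows tested, 28.5% were called higher in deficient and 40.8% in sufficient cells, and 50.4% and 35.4% were called lower.

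In IL-7 cells Gadd45g was lower in deficient than in sufficient libraries, and Fosl2 and Nr4a1 did not pass the test. Its log2 change in deficient against sufficient cells was -1.70 (SE 0.33, 95% interval -2.38 to -1.01, limma adjusted p = 0.00661), which is 3.25-fold lower. Without BASAL960 the change was -1.38 (limma adjusted p = 0.0149). Only 2.17% of the rows tested were called lower in deficient IL-7 cells (4.14% in either direction), and in 6.61% all 4 deficient libraries were below all sufficient ones. Just 0.335% of rows had a change as low as that of Gadd45g.

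The Gadd45g call was lost when BASAL957 and its 3 same-numbered libraries were left out (-1.69, limma adjusted p = 0.119), when BASAL959 and its 3 were left out (-1.76, limma adjusted p = 0.0695) and with limma voom on the restored reads (-1.73, limma adjusted p = 0.0641). Markers of B cells moved in the same comparison. The 2 B cell markers measured, Cd79a and Blk, summed to 114 to 181 normalized counts in IL-7 deficient and 283 to 890 in IL-7 sufficient libraries, and their part in the Gadd45g result was not tested. The other markers measured overlapped between deficient and sufficient libraries. These were Cd8b1 (323 to 430 against 331 to 534), Nkg7 (148 to 428 against 200 to 608) and the erythroid marker Alas2 (10.6 to 22.0 against 10.9 to 15.2). Fewer cells of a type and less RNA per cell cannot be told apart in such bulk libraries.

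The log2 difference of Nr4a1 between deficient and sufficient IL-7 cells was -1.23 (SE 0.53, 95% interval -2.36 to -0.11, limma adjusted p = 0.221), and -0.77 without BASAL960 (limma adjusted p = 0.515). The precision is limited here, with 138 restored reads over the 4 deficient and 407 over the 4 sufficient libraries. Fosl2 differed by -0.26 (SE 0.14, 95% interval -0.55 to 0.04, limma adjusted p = 0.356), with 854 reads over the deficient and 1095 over the sufficient libraries. The interval of Fosl2 leaves room for no fall and for one of up to 0.55 on the log2 scale.

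In Th17 cells, the comparison by which the genes came to be named, the differences are a description. The log2 difference of deficient from sufficient cells was -1.87 for Fosl2 (SE 0.14), -1.48 for Nr4a1 (SE 0.53) and -0.83 for Gadd45g (SE 0.33). The Fosl2 groups did not overlap, as in 23.3% of all rows tested in that direction, while those of Nr4a1 and Gadd45g did. Without D3955 the differences were -1.98 for Fosl2, -2.16 for Nr4a1 and -1.16 for Gadd45g. Other libraries moved them the other way, to -1.08 for Nr4a1 without D3959 and to -0.55 for Gadd45g without D3960. In the authors' deposited table the log2 fold changes are -1.87 for Fosl2 (SE 0.21, adjusted p-value 3.43e-17), -1.83 for Nr4a1 (SE 0.49, adjusted p-value 0.000715) and -0.94 for Gadd45g (SE 0.42, adjusted p-value 0.0479).

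The Th17 differences can be set beside the IL-7 ones, which share no libraries with them. Fosl2 differed by -1.87 in Th17 and -0.26 in IL-7 cells, a gap of -1.62 (SE 0.20). Gadd45g had the larger difference in IL-7 cells, -1.70, and -0.83 in Th17 cells, a gap of 0.87 (SE 0.46). That gap was 0.54 without D3955, 0.55 without BASAL960 and 1.15 without D3960. For Nr4a1 the gap was -0.25 (SE 0.76), well inside its error, and it took either sign when single libraries were left out, with -0.93 without D3955, -0.71 without BASAL960 and 0.15 without D3959. No test of these gaps was made, because the Th17 part of each is the comparison that chose the genes.

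**Figure D2:**
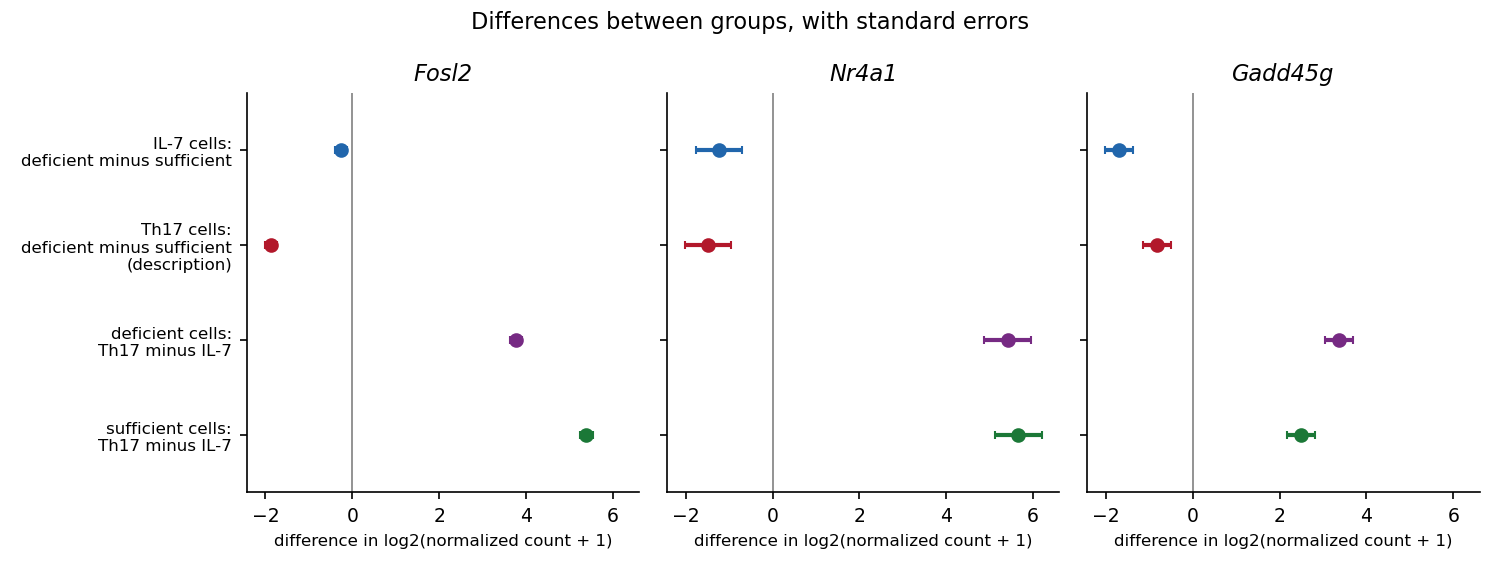
Differences in log2(normalized count + 1) (horizontal) for each gene and comparison (vertical), deficient minus sufficient in blue (IL-7) and red (Th17, a description) and Th17 minus IL-7 in purple (deficient) and green (sufficient). Points are limma estimates and bars 1 SE. Fosl2 has its difference of deficient from sufficient cells at -1.87 in Th17 cells and -0.26 in IL-7 cells, and Gadd45g at -0.83 and -1.70.

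Libraries of 1 group differed most in Nr4a1 and least in Fosl2. In the Th17 sufficient group the highest Nr4a1 value was 9.43 times the lowest, against 3.57 times for Gadd45g and 1.51 times for Fosl2. In the Th17 deficient group these ratios were 1.71, 1.64 and 1.54 for the same genes. The coefficient of variation of Nr4a1 was 25.5% in Th17 deficient and 64.6% in Th17 sufficient cells, and 44.5% in IL-7 deficient and 79.5% in IL-7 sufficient cells. Counting error alone was 3.28% for Nr4a1 in D3955, from 931 reads, and 6.62% to 20.9% in the IL-7 libraries, from 228 down to 23 reads.

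The genes tended to deviate together. Fosl2 and Nr4a1 lay on the same side of their group mean in 13 of 16 libraries, Fosl2 and Gadd45g in 13 and Nr4a1 and Gadd45g in 12. This was not particular to the 3 genes. Of 5256 named genes, the gene itself counted, 216 were nearer to Fosl2 by correlation of deviations than Nr4a1 was, and 54 nearer than Gadd45g was. For Nr4a1, 318 were nearer than Fosl2 and 141 nearer than Gadd45g. For Gadd45g, 273 were nearer than Fosl2 and 260 nearer than Nr4a1. D3955 was the lowest Th17 sufficient library for all 3 genes, with log2 deviations of -0.33 for Fosl2, -2.03 for Nr4a1 and -0.998 for Gadd45g. It was the lowest for 28.8% of all rows tested, and for 7 of the 13 other AP-1, GADD45 and p38 genes tested. BASAL960 was the highest IL-7 sufficient library for all 3 genes, for 36.6% of all rows and for 6 of those 13 genes. Both libraries were noticed for these values, so the counts describe them and test nothing.

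**Figure D3:**
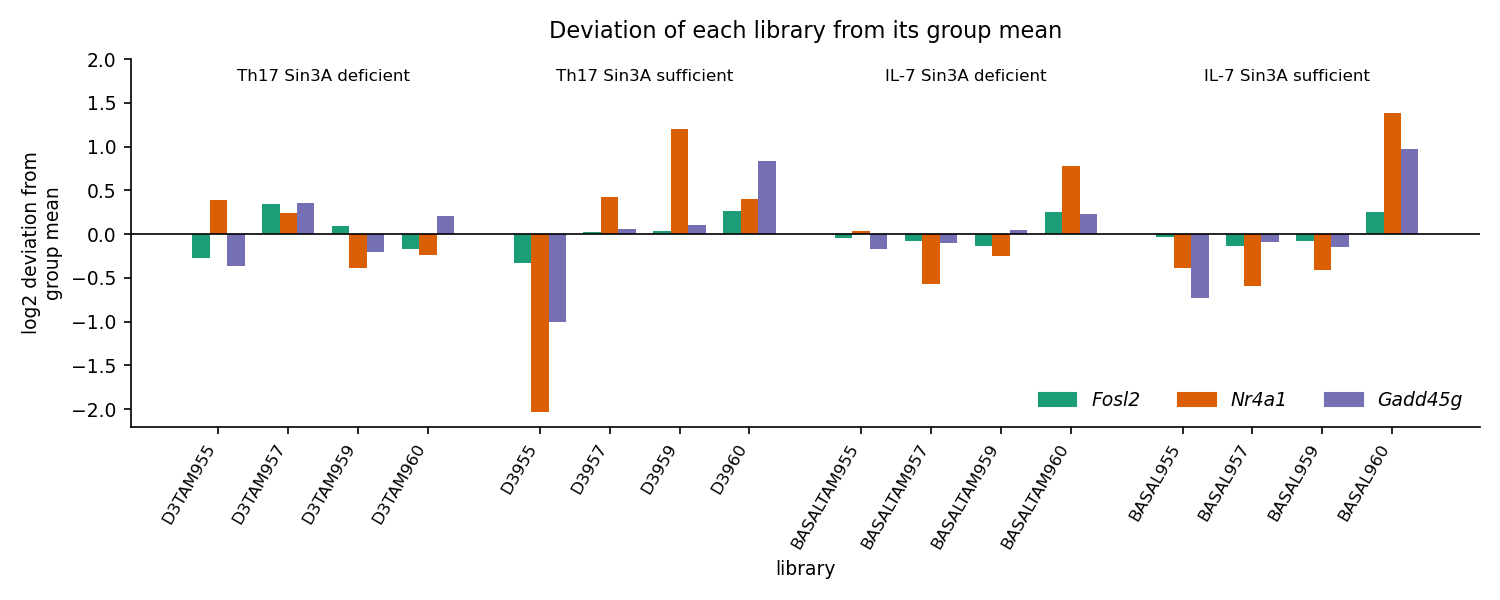
Deviation of each library (horizontal, by group) from its group mean in log2(normalized count + 1) (vertical), with bars for Fosl2, Nr4a1 and Gadd45g. All 3 bars point down in D3955, to -2.03 for Nr4a1, and all 3 point up in BASAL960.

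Of the AP-1 list 7 of 12 genes could be tested, Fosl2 among them, with Fosb, Jun, Batf3 and Atf3 not settled and Fosl1 not named. Polarization raised 4 of 7 and lowered 1 in deficient cells, and the same counts held in sufficient cells. Of all rows 37.8% were called higher and 40.7% lower in deficient cells, and 36.4% higher and 40.5% lower in sufficient cells. The list's median log2 change was 1.56 in deficient and 1.17 in sufficient cells, against -0.06 over all rows in both and -0.34 and 0.06 over named rows. Besides Fosl2, these were Junb, a Jun partner of Fra-2 (12345 against 2239.5 normalized counts in deficient and 15869 against 2253 in sufficient cells), Batf, the AP-1 factor needed for Th17 differentiation (log2 1.84 and 1.77), and Jdp2, an AP-1 repressor (1.56 and 1.17). Jund, a Jun gene with high basal expression, fell in both (-0.96 in deficient and -1.23 in sufficient cells). Fos, the founding partner of Jun, averaged 76.7 normalized counts in Th17 deficient against 86.7 in IL-7 deficient cells, and 188 in Th17 sufficient against 197 in IL-7 sufficient cells. Neither Fos difference passed (limma adjusted p = 0.722 and 0.405), nor did those of Batf2 (limma adjusted p = 0.832 and 0.156). Fosl2 was therefore the AP-1 gene with the largest polarization change of the 7 tested. In IL-7 cells 1 of 7 was called lower in deficient cells, Jdp2 at -2.10 (5.29 ± 2.63 normalized counts in deficient and 24.2 ± 3.56 in sufficient cells, limma adjusted p = 0.00391). The median of the 7 was -0.49, against 0.0011 over all rows. Jund stood at -0.60 there (limma adjusted p = 0.0521), Batf at -0.49, Fos at -1.15 and Junb at -0.02, none of which passed.

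Of the NR4A family only Nr4a1 could be measured. Nr4a2 had no settled values and Nr4a3 was not joined to a row.

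Gadd45g belongs to a family of 3, all of which were measured. Gadd45b, which also binds MEKK4, moved with Gadd45g under polarization: 1547 ± 514 normalized counts in Th17 deficient against 143 ± 33.4 in IL-7 deficient cells (log2 3.40, limma adjusted p = 3.85e-07), and a log2 change of 3.15 in sufficient cells (limma adjusted p = 1.15e-06). Gadd45a, the p53-regulated member, averaged 176 in Th17 deficient against 226 in IL-7 deficient cells and 257 in Th17 sufficient against 241 in IL-7 sufficient cells, and did not pass (limma adjusted p = 0.119 and 0.641). In IL-7 cells Gadd45b averaged 143 ± 33.4 normalized counts in deficient and 335 ± 245 in sufficient cells (log2 -0.996, SE 0.40, limma adjusted p = 0.181) and Gadd45a differed by -0.06 (limma adjusted p = 0.926).

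Of the 10 genes of the GADD45 and p38 list, 8 were tested, and in deficient cells 4 rose and 2 fell under polarization while in sufficient cells 5 rose and 1 fell. The medians were 0.22 and 1.28, against -0.06 over all rows, of which 37.8% and 36.4% rose and 40.7% and 40.5% fell. Over named rows the medians were -0.34 and 0.06. Mapk13, encoding p38 delta, rose in both (log2 2.56 and 3.38, with 1.15 normalized counts in IL-7 deficient and 1.52 in IL-7 sufficient cells), and Mapk11, encoding p38 beta, rose by less (0.45 and 0.84). Mapk14, the main p38 kinase gene of T cells, fell in both (-0.63 and -0.44). Mapk12, encoding p38 gamma, fell in deficient cells (-1.24, limma adjusted p = 0.000449) and stood at 0.47 in sufficient cells, which did not pass (limma adjusted p = 0.128). Map2k6, a kinase that activates p38, stood at 147 normalized counts in both deficient groups (limma adjusted p = 0.962), and at 391 in Th17 sufficient against 116 in IL-7 sufficient cells (log2 1.71, limma adjusted p = 1.52e-06). In IL-7 cells Gadd45g was the only one of the 8 called, and the list's median was -0.09.

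**Figure D4:**
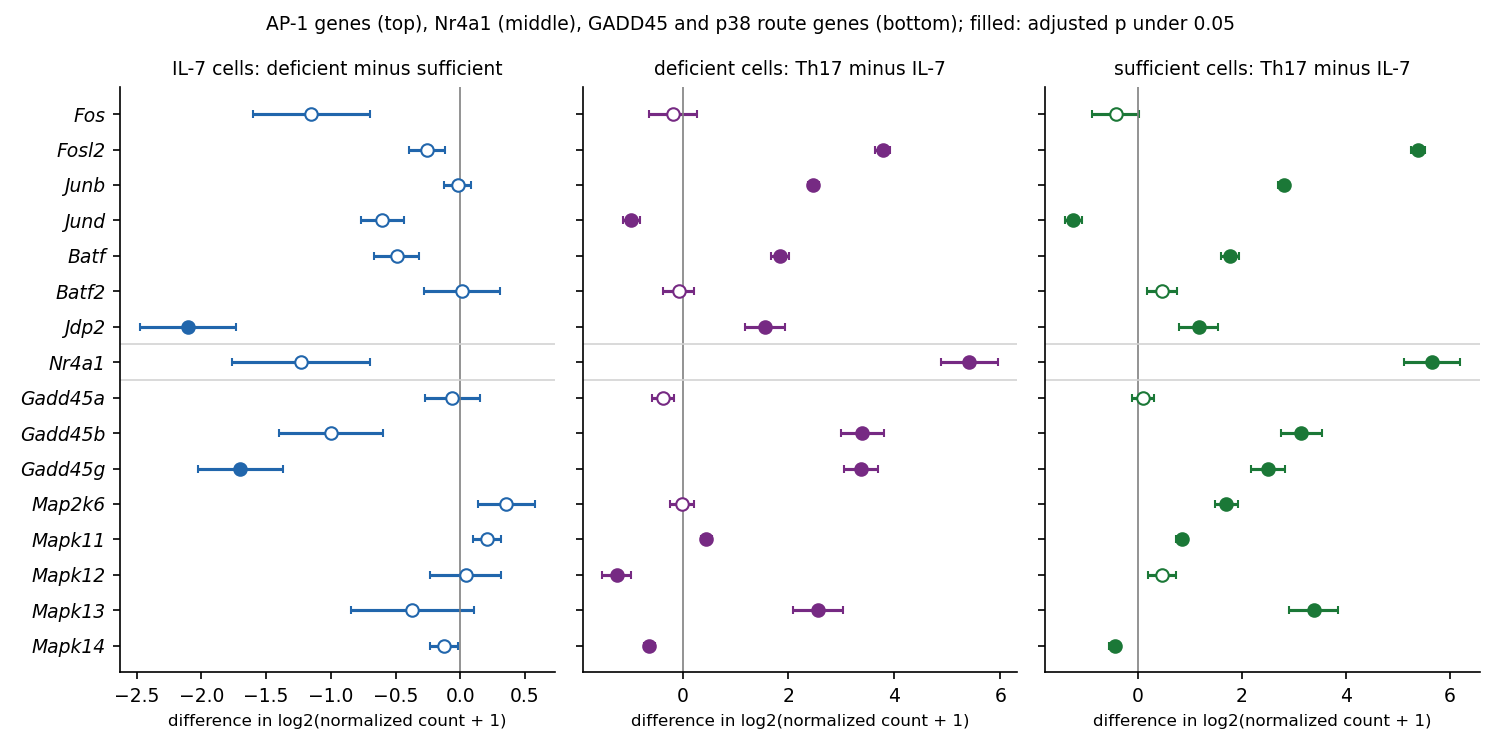
Differences in log2(normalized count + 1) with SE (horizontal) for the tested AP-1 genes, Nr4a1 and the tested GADD45 and p38 genes (vertical), in 3 comparisons. Filled points have a limma adjusted p under 0.05; in IL-7 cells these are Jdp2 and Gadd45g, and in both polarization panels Fosl2 and Nr4a1 have the largest changes.

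Genes of a T cell receptor and immediate early response list, which holds factors of the pathway such as Rela and Mef2a besides induced genes, did not all follow the 3. Of 50 on the list 22 were tested, and polarization raised 7 and lowered 8 in deficient cells and raised 9 and lowered 5 in sufficient cells, with medians of 0.12 and 0.36. Over all rows the medians were -0.06 in both, with 37.8% and 36.4% called higher and 40.7% and 40.5% lower, so the counts in deficient cells are near those of all rows. Only named genes can be tested in a list. Of named rows 28.5% were called higher and 50.4% lower in deficient cells (median -0.34), and 40.8% and 35.4% in sufficient cells (median 0.06). Ier3, an immediate early gene of survival signalling, rose most (log2 6.03 and 7.36), and Icos, a costimulatory receptor, rose in both (2.64 and 2.52). Tnfrsf4, encoding OX40, and Tnfaip3, the NF-kappaB inhibitor A20, rose in both as well, Tnfrsf4 by 1.33 in deficient and 2.80 in sufficient cells and Tnfaip3 by 1.57 and 2.48. Dusp10, a phosphatase that acts on p38 and JNK, and Cd40lg, the ligand of CD40, fell in both, Dusp10 with log2 changes of -1.95 in deficient and -2.14 in sufficient cells and Cd40lg with -1.74 and -1.29. In IL-7 cells Icos alone was called lower in deficient than in sufficient cells (log2 -0.92, limma adjusted p = 0.0106).

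Of 12 cytokine receptor and JAK-STAT feedback genes tested, 4 were called lower in deficient IL-7 cells, against 2.17% of all rows and 3.33% of named rows. They were Cish, a SOCS family inhibitor induced by STAT5 (-0.82), Pim1, a STAT5-induced kinase (-0.64), Osm, encoding the cytokine oncostatin M (-0.52), and Il2rg, the receptor chain that IL-7 and IL-2 share (-0.43), with limma adjusted p between 0.00592 and 0.0400. Under polarization 4 rose and 5 fell in deficient and 6 rose and 5 fell in sufficient cells, where 37.8% and 36.4% of all rows rose and 40.7% and 40.5% fell, with Jak3 (2.78 and 3.00) and Il2rb (1.20 and 1.37) higher and Il7r (-1.58 and -1.32) lower in both. Of the Th17 list 12 of 18 genes were tested. Of these 10 rose and 1 fell in deficient and 9 rose and 1 fell in sufficient cells, beside 37.8% and 36.4% of all rows that rose and 40.7% and 40.5% that fell. Il21, Il22, Il17f and Il17a rose most. Ikzf3, encoding the Ikaros family factor Aiolos, was lower in deficient than in sufficient IL-7 cells (-0.86, limma adjusted p = 0.00376).

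The genes whose levels followed each of the 3 most closely over the 16 libraries were ranked among 5256 named genes, as a description, since all libraries share the large gap between stages. For Fosl2 these were Tiparp, an ADP-ribosyltransferase gene (Pearson r = 0.995), Exosc8, Hemk1, Rbpj, the Notch effector, and Zfp9. For Nr4a1 they included Ifrd1, a transcriptional coregulator gene (r = 0.991), Ssr4, Pam16 and Tgfb1. For Gadd45g they were Gm17041, Bcl3, an atypical NF-kappaB regulator (r = 0.980), Sema4d, Cish (r = 0.980) and Icos (r = 0.975). Of the 3 genes themselves, the pair nearest in level was Fosl2 and Nr4a1 (r = 0.964), and 161 genes, Nr4a1 itself counted, were nearer to Nr4a1 than Fosl2 was. Counted in the same way, 307 were nearer to Nr4a1 than Gadd45g was. For Fosl2, 326 were nearer than Nr4a1 and 986 nearer than Gadd45g. For Gadd45g, 383 were nearer than Fosl2 and 36 nearer than Nr4a1.

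With the group means taken out, other genes came first for Fosl2 and Gadd45g. Nr4a1 was again nearest to Ifrd1 (r = 0.939), to Rel, encoding the NF-kappaB subunit c-Rel (r = 0.903), and to Bcl2l1, encoding the survival protein Bcl-xL (r = 0.898), over 16 libraries. The nearest to Gadd45g included Manf and Tab2. Fosl2 was nearest to C920009B18Rik (r = 0.891), to Tle3, encoding a Groucho family corepressor (r = 0.882), and to Paxbp1. Ifrd1 was thus first for Nr4a1 by both measures, with 1800.1 normalized counts in Th17 deficient, 2278 in Th17 sufficient, 817 in IL-7 deficient and 898 in IL-7 sufficient cells.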

How the data were processed

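Poly(A) RNA of 16 libraries, 4 in each of 4 groups taken from the labels, was sequenced stranded. The submitters' processing notes name Trim Galore 0.4.4, STAR 2.6, featureCounts, edgeR, DESeq2 and the build NCBIM37, without settings. The deposited table holds normalized counts whose digits had lost their decimal point (used as a score), and, per the file headers, the authors' log2 fold change with its standard error and p-value for 8552 genes, not in the order of the value rows.

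Each value is whole reads times 1 step per library, which held for 99.993% of nonzero values. The power of 10 of each value was taken from how well the 4 values in a group fitted a negative binomial model, and 14887 of 17850 rows were settled (posterior of at least 0.95 in every group, or the join for the Th17 groups of named rows). A name was joined to the row that gave the authors' log2 fold change to within 1e-06 at the dispersion their standard error implies, with the next row 20 times farther. Of the names 8000 were joined, 323 on next-best powers, and 9 of 1000 decoys with shifted fold changes were joined. The decoys went through the first search only. A second search, among rows that no other name had taken, joined 68 names. Fosl2 and Gadd45g were joined in the first search on the most probable powers. Nr4a1 was joined in the second on next-best powers, so the decoy rate does not cover it. IL-7 values are not checked by the join and rest on posteriors of 0.965 to 1.00 for the 3 genes.

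The test was limma (R 4.3.3, limma 3.58.1) on log2(normalized count + 1), with 4 group means fitted over all 16 libraries, for the 14321 settled rows with at least 10 normalized counts in at least 4 libraries, with Benjamini-Hochberg adjustment and a threshold of 0.05. Restoring, join and fit were tried on reads simulated from a negative binomial model, the kind that the restoring assumes. The trial therefore does not cover values that depart from that model. Named genes were the 3 genes, the tested genes of the AP-1, NR4A and GADD45 lists, the 4 largest called changes per comparison of the other lists, and the 5 nearest genes by level and 3 by deviation, among named genes averaging at least 50 normalized counts; a few genes that this rule names are not reported here. The genes and lists were chosen with earlier results of these data known. Restored totals limit the precision of low values, and intervals cover only what the libraries show. Columns of per-sample values left out numbered 0.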

Additional observations from a re-analysis of the deposited data

Results flagged for a closer look

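Nr4a1 in BASAL960, an IL-7 sufficient library, was far from the other 3 of its group: it had 193 normalized counts, against 48.3 to 56.0 in the others. About 1 in 20 groups of 4 would be picked out in this way by chance, and 12 groups of values (3 genes in 4 groups) were examined. The IL-7 difference of Nr4a1 was -1.23 on the log2 scale with BASAL960 and -0.77 without it, and it did not pass the test in either case (limma adjusted p = 0.221 and 0.515). BASAL960 was also the highest library of its group for Fosl2 (283 normalized counts) and Gadd45g (904).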

How the results depend on the processing

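Over 30 alternatives, 431 of 437 results of the 3 genes kept their direction and their side of the threshold or stayed within the spread between libraries. An alternative that asked for posteriors of at least 0.99 kept the 3 genes in by rule. Nr4a1 had posteriors of 0.988 in IL-7 deficient and 0.965 in IL-7 sufficient cells, so that alternative does not check its values. No tested difference changed direction, while the Nr4a1 gap, which was not tested, took either sign. The range for polarization was 3.22 to 6.50 on the log2 scale except for Gadd45g in sufficient cells (2.22 to 2.83). The IL-7 change of Gadd45g ran from -1.94 to -1.38 when replicates were left out and no longer passed without BASAL957 and its 3 same-numbered libraries (limma adjusted p = 0.119) or BASAL959 and its 3 (limma adjusted p = 0.0695), nor with limma voom on the restored reads, an alternative chosen after seeing the data (-1.73, limma adjusted p = 0.0641). Its p ran from 0.000359 to 0.119 over all alternatives. The Nr4a1 gap between Th17 and IL-7 differences ran from -0.93 to 0.34 when replicates were left out. With the D3955 value of Nr4a1 10 times higher, also chosen after seeing the data, its Th17 difference was -2.31 and its gap -1.08, and the cause of the probable power differing from the joined one was not tested.

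The rows called in IL-7 cells, 593 in all, ran from 41 to 729 when replicates were left out, with 41 without the number of BASAL957, 138 without that of BASAL959, 317 without BASALTAM955, 267 without BASALTAM957, 376 without BASALTAM959 and 346 without BASAL957. With named rows alone, fewer rows were tested (6763), and 241 were called in IL-7 cells, 5316 by polarization in deficient and 5140 in sufficient cells. Same-numbered libraries deviated together with correlations of 0.0085 to 0.404, over 0.1 in 13 of 24 pairs. In 44 of 48 cases a library matched its own number best, so the numbers carry some pairing. The main fit did not use it. With the number as a replicate block the Gadd45g change in IL-7 cells stayed at -1.70 (limma adjusted p = 0.000359), with an SE of 0.20 against 0.33 in the main fit. With this block 885 rows were called in IL-7 cells, and no call on the 3 genes changed. The deposited digits are not counts. The planned edgeR and DESeq2 fits were not run, and limma voom was run on the restored reads instead.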

Other observations

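The authors' mean normalized count, as the authors' deposited table gives it, was 4795 for Fosl2, 8401 for Nr4a1 and 1355 for Gadd45g. The mean of the 16 restored libraries was 3341 for Fosl2, 1602 for Nr4a1 and 1255 for Gadd45g. The authors' mean was thus 5.24 times the mean of the 16 libraries for Nr4a1, a ratio above that of 99.6% of 7058 named genes, against 1.44 times for Fosl2 and 1.08 times for Gadd45g. Whether this ratio bears on the join of Nr4a1 to its row was not tested. The median ratio over the named genes was 0.981. Over these genes the sum of the 16 libraries reached 23.4 times the authors' mean at the 99th percentile, so that mean covers more libraries than the 16 analysed here.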
